A study of Mus musculus with 6 samples.

Results

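Elastic fibre genes are described here across the cell types of mouse lower abdominal muscle (LAM). The group holds 9 of the 16494 genes in the deposited count table, namely Eln, Fbn1, Fbln1, Fbln2, Fbln5, Mfap2, Mfap4, Mfap5 and Emilin1, and was set by gene name, with earlier results of these data known. Single-cell RNA sequencing (scRNA-seq, 10x Genomics droplets) was performed on dissociated LAM from 3 wild-type (WT) mice, labelled as controls, and 3 Aromhum mice, labelled with scrotal hernia. Aromhum mice carry the human aromatase gene CYP19A1 under its native human promoters, and aromatase converts testosterone to estrogen. All 6 mice were male FVB/N animals of 9-10 weeks, 1 library per mouse, and the labels give no deletion or treatment. The transgene was not restricted to a cell type, and an effect of CYP19A1 within LAM cells cannot be told apart here from effects of circulating hormone or of the hernia. The tissue was digested with collagenase and dispase and passed through a filter meant to hold back multinucleated cells such as muscle fibres.

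Elastic fibres give tissue its recoil. They have a core of cross-linked elastin, encoded by Eln, laid down on a scaffold of microfibrils whose main component is the fibrillin encoded by Fbn1. Mfap2 and Mfap5 encode small glycoproteins bound to fibrillin microfibrils, and Mfap4 encodes a fibrinogen-related protein found on elastic fibres. The fibulins Fbln1, Fbln2 and Fbln5 bind elastin, Fbln5 being needed for its assembly in many tissues, and Emilin1 encodes a glycoprotein at the interface of elastin and microfibrils. Fibroblasts, smooth muscle cells and arterial endothelial cells are known producers of these proteins.

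The table held 63647 barcodes. UMIs (unique molecular identifiers, each standing for 1 captured RNA molecule) summed to 64958237 to 111826460 per mouse, and the median per barcode was 4728.5 to 8727. CYP19A1 had 0 UMIs in each WT mouse and 770 to 797 in each Aromhum mouse, matching the labels. Cells were clustered without any elastic fibre gene and named from marker genes, which gave 13 broad cell types, and names below stand for cells like the named type. Clusters of fibroblast-like or endothelial-like cells led by markers of another type were left out as mixed, 1.58% to 2.68% of barcodes per mouse. Mixed clusters were sought in these 2 cell types only, and single barcodes were not screened. Of the barcode sequences, 470 occurred in 2 libraries and 1 in 3. Levels below are UMI counts scaled to the total (CPM), summed over the cells of a type in a mouse, and a level in a cell type is a mean ± SD over the mice with at least 10 such cells. Genotypes were compared with edgeR's quasi-likelihood test on the sums per mouse, 3 WT against 3 Aromhum. Log2 fold changes are Aromhum over WT and use edgeR's own scaling, so they can differ a little from the ratio of the CPM values. Adjusted p is by Benjamini-Hochberg over all genes tested, a gene was called below 0.05, and a share called over all genes is given for each comparison as its background.

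Fibroblast-like cells, which express collagen genes such as Col1a1 and the receptor gene Pdgfra, had the highest mean level of 8 of the 9 members. The exception was Fbln5, which among the broad types was highest in lymphatic endothelial-like cells. Arterial cells, a subset of the endothelial-like cells, lay higher still, with Fbln5 at 332 ± 44.5 CPM in WT and 557 ± 143 CPM in Aromhum mice (n = 3 each). The same 8 members were highest in fibroblast-like cells under every alternative setting run, including each mouse left out in turn and the elastic fibre genes kept in the clustering. Cell types are clusters of the same cells, so these levels are a description without a test.

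Of the core and its microfibril, Eln stood at 608 ± 191 CPM in fibroblast-like cells (n = 6 mice), followed by contractile smooth muscle-like cells at 252 ± 102 CPM, and the ranges of these neighbours overlapped. Eln was 171 ± 103 CPM in mesothelial-like cells and 117 ± 71.3 CPM in endothelial-like cells. Fbn1 was 973 ± 321 CPM in fibroblast-like cells. The next Fbn1 levels were 177 ± 211 CPM in neutrophil-like cells, from 4 mice with few cells, and 148 ± 53.5 CPM in glial-like cells. No mouse had an Fbn1 level in neutrophil-like cells that reached the lowest fibroblast-like level.

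The fibrillin-associated genes had their highest level in fibroblast-like cells. Mfap5 was 1877 ± 299 CPM there and 511 ± 104 CPM in glial-like cells, which ranked next. Mfap4 was 1344 ± 254 CPM in fibroblast-like cells and 198 ± 182 CPM in T cell-like cells, an SD nearly as large as the mean. Mfap2 was 117 ± 13.1 CPM in fibroblast-like cells and 16.1 ± 5.03 CPM in glial-like cells. For each of these genes the fibroblast-like range lay above that of the cell type next in rank. As a share of the fibroblast-like level, Mfap4 was 13.6% in T cell-like cells, where 8 summed fibroblast markers stood at 17.7%. In glial-like cells these markers stood at 23.2%, Mfap5 at 27.5%, Fbn1 at 15.3% and Mfap2 at 13.9%. The part of fibroblast RNA in levels outside fibroblast-like cells was not tested.

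The fibulins were also found at sizeable levels outside fibroblast-like cells. Fbln1 was 596 ± 191 CPM in fibroblast-like cells and 326 ± 129 CPM in mesothelial-like cells, with overlapping ranges, and the latter lay above glial-like cells at 107 ± 23.7 CPM. Fbln2 was 722 ± 109 CPM in fibroblast-like cells, 310.0 ± 58.9 CPM in endothelial-like cells and 239 ± 28.7 CPM in pericyte-like cells. Fbln5 was 178 ± 13.3 CPM in lymphatic endothelial-like cells, 147 ± 20.3 CPM in fibroblast-like cells, 129 ± 23.1 CPM in glial-like cells, 121 ± 45.7 CPM in endothelial-like cells and 112 ± 21.5 CPM in pericyte-like cells. Every neighbouring pair in that Fbln5 order overlapped. Emilin1 was 49.8 ± 7.47 CPM in fibroblast-like cells, 28.5 ± 4.83 CPM in contractile smooth muscle-like cells and 27.5 ± 6.67 CPM in lymphatic endothelial-like cells, the first lying above the second.

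**Figure D1:**
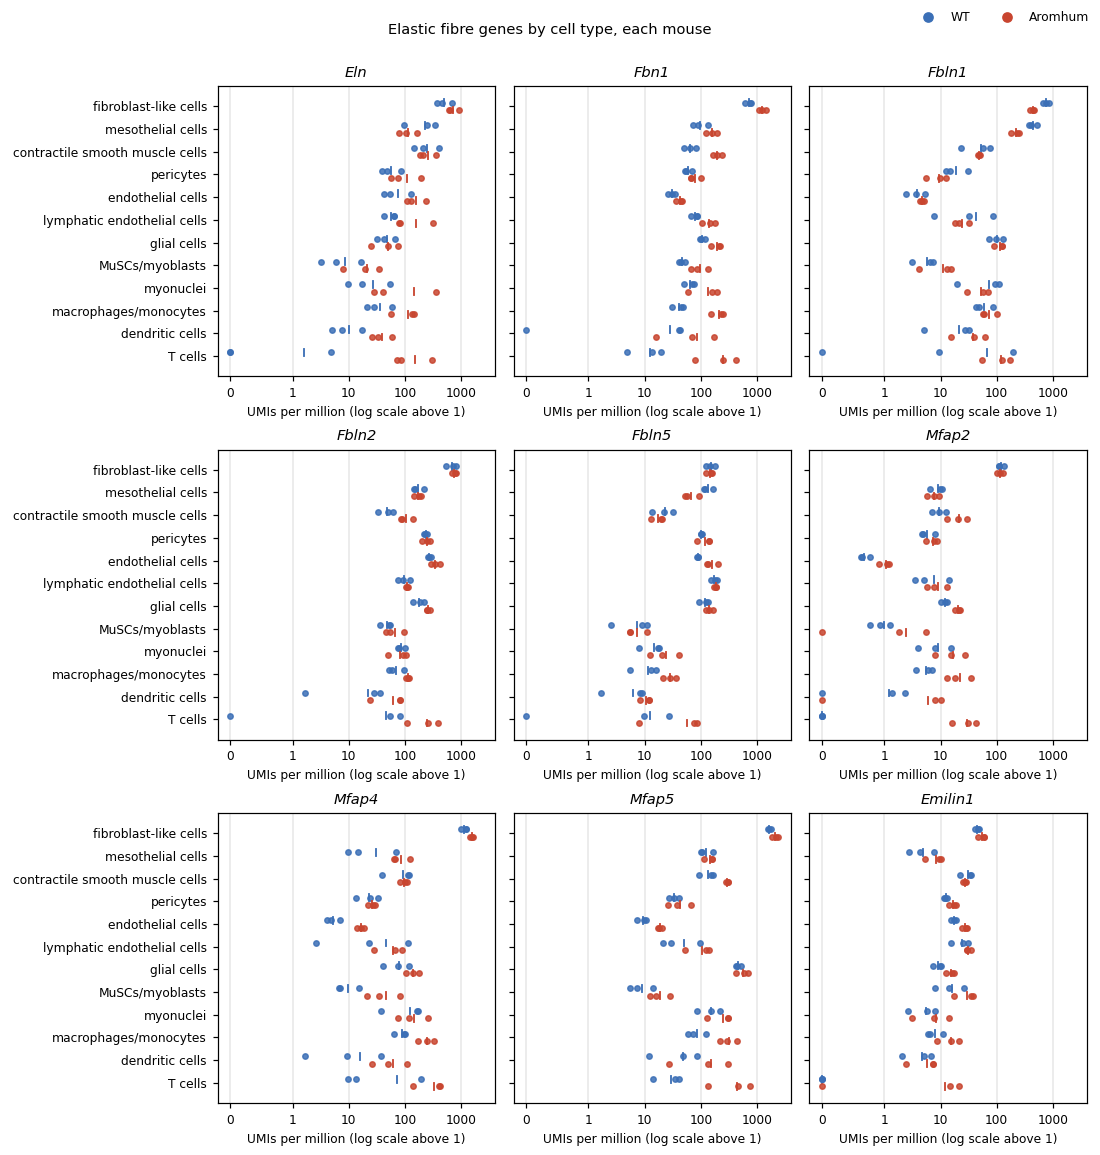
Levels of the 9 elastic fibre genes in CPM (log scale above 1) by cell type, where names stand for cells like the named type. Each point is a mouse, WT in blue and Aromhum in red, and short bars are means per genotype. Fibroblast-like cells head every panel but that of Fbln5, which among these broad types is highest in lymphatic endothelial-like cells.

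Because cell types differ in number, levels per cell type do not show where most of the RNA came from. In WT mice, fibroblast-like cells held from 46.0% of the Fbln5 UMIs to 86.4% of the Mfap4 UMIs (means of 3 mice). In Aromhum mice the same cells held from 68.2% of Fbln5 to 92.5% of Mfap4. On average fibroblast-like cells thus held most of the UMIs of every member in both genotypes, save those of Fbln5 in WT mice. Endothelial-like cells held 20.7% of Fbln5, 18.5% of Fbln2, 17.0% of Emilin1 and 8.77% of Eln UMIs in WT mice. In Aromhum mice they held 12.5%, 6.59%, 6.55% and 3.43% of the same genes. Fibroblast-like cells themselves were 24.0% of barcodes in WT and 41.3% in Aromhum mice.

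At least 1 UMI of Mfap5 was found in 90.0% ± 1.65 (SD, n = 3) of fibroblast-like cells in WT and 91.2% ± 1.05 in Aromhum mice. For Fbn1 the shares were 82.4% ± 3.11 and 92.5% ± 0.936, and for Fbln1 85.9% ± 1.36 and 81.4% ± 2.55. By these means Fbn1 was found in more and Fbln1 in fewer fibroblast-like cells of Aromhum mice. Emilin1 had the lowest share, 29.9% ± 4.08 and 40.4% ± 7.44. T cell-like cells, where these genes are not thought to be expressed, had a UMI of Mfap5 in 8.501% ± 5.01 of cells in WT and 13.9% ± 4.60 in Aromhum mice, and of Fbn1 in 4.09% ± 1.99 and 9.69% ± 6.08 (n = 3 each), at median depths per mouse of 1935 to 3777 UMIs against 8704 to 12761.5 in fibroblast-like cells. After each cell was thinned to 1000 UMIs, leaving out 39 shallower fibroblast-like cells in WT and 88 in Aromhum mice, Fbn1 was found in 37.4% ± 4.52 of WT and 55.2% ± 1.71 of Aromhum fibroblast-like cells. Thinned shares of Fbln1 were 45.4% ± 1.51 and 33.4% ± 1.88, and those of Mfap4 41.6% ± 2.67 and 51.9% ± 2.08. In T cell-like cells thinned alike, Fbn1 was found in 0.641% ± 1.11 of WT and 5.34% ± 2.88 of Aromhum cells, so this background share, on 126 and 284 cells, was also higher in Aromhum mice. The summed fibroblast markers in T cell-like cells were 205 to 5356 CPM in WT and 4812 to 21811.5 CPM in Aromhum mice.

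Fibroblast-like cells fell into groups that differed in which members stood highest. Dmkn-hi fibroblasts had 2342 ± 581 CPM of Fbn1 and 4241 ± 675 CPM of Mfap5, in both cases with the lowest Dmkn-hi mouse above the highest mouse of the group next in rank. The same cells had the lowest Mfap4 of the groups, 170.4 ± 92.7 CPM, below every mouse of the group next above it. Esr1-hi fibroblasts, named for the estrogen receptor gene Esr1, had 2308 ± 228 CPM of Mfap4 and 160.1 ± 60.5 CPM of Fbln5. The paper found Esr1 in every fibroblast-like cluster, with enrichment in this population. Fbln5 in Esr1-hi fibroblasts overlapped with tenocyte progenitors at 155 ± 40.8 CPM and Dmkn-hi fibroblasts at 153 ± 41.3 CPM. Tenocytes, cells with markers of tendon fibroblasts such as Scx and Tnmd, had 76.0 ± 12.3 CPM of Emilin1, overlapping with Esr1-hi fibroblasts at 71.6 ± 9.01 CPM. Mmp3-hi fibroblasts, named for Mmp3, had at least 10 cells in 3 mice only. Their levels were 710 ± 230 CPM of Eln, 817 ± 235 CPM of Fbln1, 566 ± 329 CPM of Fbn1 and 71.7 ± 7.83 CPM of Fbln5.

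A cluster led by Tspan8, Epyc and Lgr5 passed no set of group markers and stayed unnamed. It had 5288 ± 3451 CPM of Eln over 5 mice, against 1071 ± 586 CPM in tenocyte progenitors (n = 6), which ranked next and overlapped with it. Its Eln was 1546 and 8635 CPM in WT 1 and 3, and 4209, 2847 and 9201 CPM in Aromhum 1, 2 and 3, with the genotypes interleaved. WT 2 had 4 cells in this cluster and was left out. Fbln1 in the unnamed cluster was 1680.2 ± 456 CPM, above every mouse of tenocyte progenitors at 935 ± 136 CPM, and Mfap4 was 3422 ± 524 CPM. No genotype test was made there, since not every mouse had 10 cells.

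**Figure D2:**
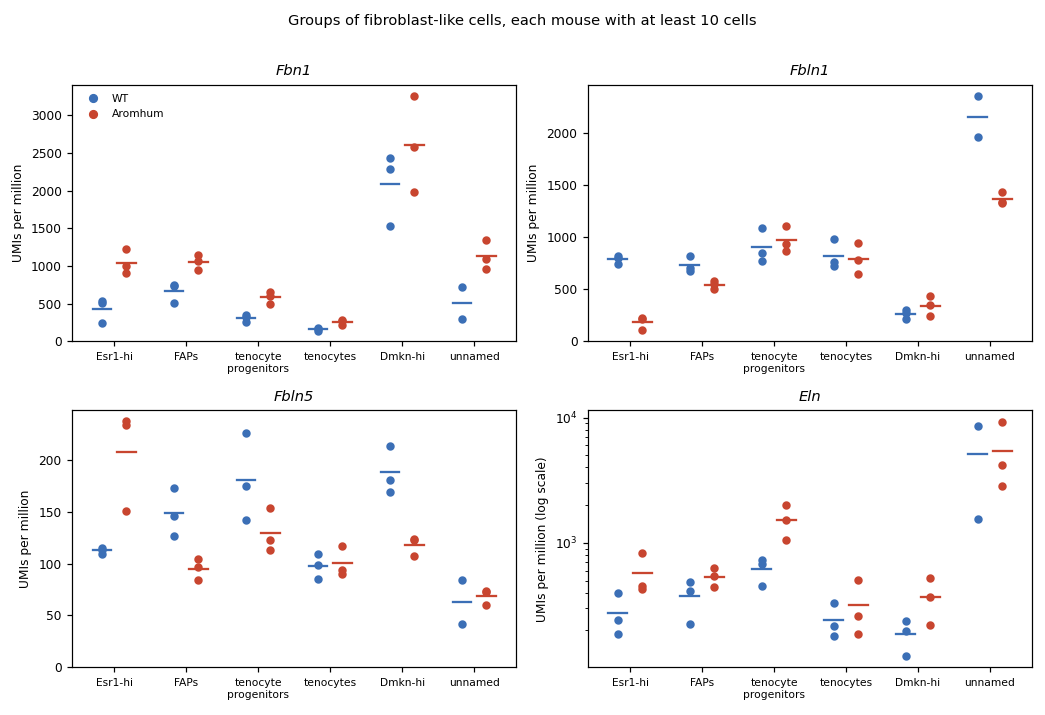
Fbn1, Fbln1, Fbln5 and Eln in CPM in the groups of fibroblast-like cells, Eln on a log scale. Each point is a mouse with at least 10 cells of the group, WT in blue and Aromhum in red, and bars are means. Mmp3-hi fibroblasts are not drawn. Fbn1 is highest in Dmkn-hi fibroblasts, Eln in the unnamed cluster, and Fbln1 in Esr1-hi fibroblasts separates the genotypes without overlap.

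The likeness of other genes to each member was measured as Pearson's r of log2(mean CPM + 1) across 18 cell types and fibroblast-like groups, over 13170 genes. Groups share libraries and fibroblast-like groups make up part of the total, so r is a description. Among the genes most like Eln were Nox4 (r = 0.897) and Ism1 (r = 0.872). Fbn1 was most like Fstl1 (r = 0.965), Tnxb (r = 0.938) and Bmp1 (r = 0.937). Fbln1 was most like Itgbl1 (r = 0.986), Col14a1 (r = 0.975) and Ccdc80 (r = 0.972). Col14a1 encodes a fibril-associated collagen. Mfap2 was most like Serpinf1 (r = 0.969), Col1a1 (r = 0.963) and Sfrp4 (r = 0.962), Mfap4 like Cilp (r = 0.982), Serpinf1 (r = 0.967) and Fbln7 (r = 0.956), and Mfap5 like Pi16 (r = 0.952), Has1 (r = 0.951) and Col1a2 (r = 0.941). Col1a1 and Col1a2 encode the chains of type I collagen, the main product of fibroblasts. Fbln2 was most like Cd34 (r = 0.924), Ly6a (r = 0.913) and Ace (r = 0.910), genes of which Cd34 is found on endothelial cells and fibroblasts alike. Fbln5 was most like Mr1 (r = 0.889), Cpne8 (r = 0.888) and Palm (r = 0.881), and Emilin1 like Chst14 (r = 0.897), Fam20a (r = 0.896) and Anapc7 (r = 0.895). Among members, the pair most alike was Mfap2 and Mfap5 (r = 0.933).

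Aromhum and WT mice were compared first in fibroblast-like cells as a whole. Fbn1 rose and Fbln1 fell in Aromhum mice, and no other member was called. That makes 2 of 9 members called, where 13.4% of the 13868 genes tested were called. The median log2 fold change of the members was 0.263 and that of all genes 0.016. At an unadjusted p under 0.05, 4 members passed, where 33.2% of all genes did, and DESeq2 called 4, with 3 higher and 1 lower, where it called 20.2% of all genes.

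Fbn1, the microfibril gene, was 603, 774 and 738 CPM in WT 1, 2 and 3 and 1212, 1066 and 1442 CPM in Aromhum 1, 2 and 3. Every Aromhum mouse lay above every WT mouse, a 1.74-fold difference (log2 fold change 0.80 ± 0.14 (SE), adjusted p = 0.0236). Fbln1 was 867, 672 and 738 CPM in WT 1, 2 and 3 and 458, 446 and 394 CPM in Aromhum 1, 2 and 3, with every Aromhum mouse below every WT mouse (log2 fold change -0.83 ± 0.16 (SE), adjusted p = 0.0276, 1.77-fold lower). Both calls were lost without any one of WT 1, WT 2, WT 3, Aromhum 1 or Aromhum 2, with adjusted p of up to 0.102, while the log2 fold change stayed between 0.70 and 0.89 for Fbn1 and between -0.93 and -0.70 for Fbln1. Fbln1 was -0.31, adjusted p = 0.33, with Esr1-hi fibroblasts left out, and -0.18, adjusted p = 0.604, with equal weight for each fibroblast-like cluster.

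Both calls were also lost within the study's limits on cells, which keep barcodes with 200 to 2500 genes. There Fbn1 was 1.02, adjusted p = 0.159, and Fbln1 -0.48, adjusted p = 0.203, and 1 gene was called in all. Barcodes within these limits were clustered and named anew. This gave 1769, 590 and 552 fibroblast-like cells in WT 1, 2 and 3, against 3359, 2280 and 1423 without the limits. In Aromhum 1, 2 and 3 it gave 1312, 2813 and 664, against 4725, 6598 and 3294.

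Of the members that were not called, Mfap4 was 1213, 977 and 1212 CPM in WT and 1568, 1444 and 1651 CPM in Aromhum mice, and the genotypes did not overlap (log2 fold change 0.44 ± 0.15 (SE), adjusted p = 0.0891), while within the study's limits on cells its sign turned (-0.020). Mfap5 was 1541, 1803 and 1610.1 CPM in WT and 2131, 1858 and 2317 CPM in Aromhum mice, again without overlap (log2 fold change 0.33 ± 0.13 (SE), adjusted p = 0.115). Eln, the elastin gene, was 365, 447 and 686 CPM in WT and 645, 599 and 908 CPM in Aromhum mice, with WT 3 above Aromhum 1 and 2 (log2 fold change 0.50 ± 0.25 (SE), adjusted p = 0.2). The unnamed cluster, highest in Eln, held 369, 4 and 36 cells in WT and 205, 480 and 50 in Aromhum 1, 2 and 3. Its part in these Eln levels was not tested. The remaining members, Fbln2, Fbln5, Mfap2 and Emilin1, overlapped between genotypes, with log2 fold changes of 0.14, -0.04, -0.07 and 0.26.

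**Figure D3:**
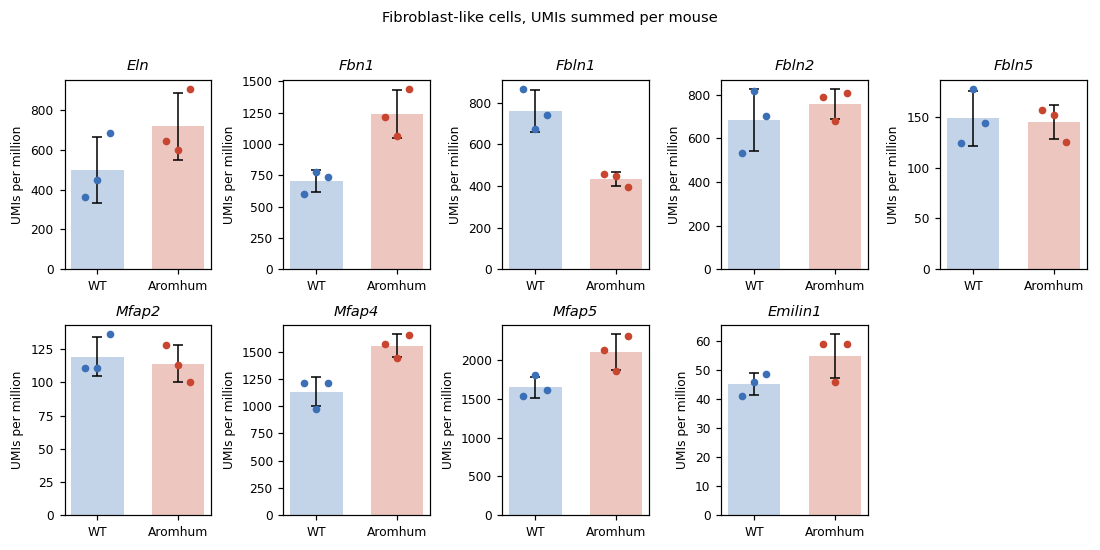
Levels of the 9 members in fibroblast-like cells in CPM. Points are mice, bars are means of 3 WT (blue) or 3 Aromhum (red) mice and error bars are SD. Fbn1, Mfap4 and Mfap5 are higher and Fbln1 lower in every Aromhum mouse than in every WT mouse. Of these, only Fbn1 and Fbln1 were called by edgeR.

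Esr1-hi fibroblasts were 853 cells in the 3 WT mice and 4121 in the 3 Aromhum mice. In them 4 of 9 members were called, where 12.7% of all genes tested were called. Fbln1 was 799, 819 and 744 CPM in WT 1, 2 and 3 and 222, 219 and 114 CPM in Aromhum 1, 2 and 3. The highest Aromhum level was below the lowest WT level, 4.32-fold lower on the fitted scale (log2 fold change -2.11 ± 0.27 (SE), adjusted p = 0.00611). This call held in each other setting run and with each mouse left out. Fbn1 was 250.1, 506 and 529.7 CPM in WT and 996, 912 and 1226 CPM in Aromhum mice, without overlap (log2 fold change 1.26 ± 0.26 (SE), adjusted p = 0.0241). Its call was lost without WT 2, WT 3, Aromhum 1 or Aromhum 2, with adjusted p of up to 0.0799 over the mice left out, and within the study's limits on cells without the upper one on genes.

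Fbln5 was 115, 109 and 113 CPM in WT and 238, 234 and 151 CPM in Aromhum mice in Esr1-hi fibroblasts, every Aromhum mouse lying above every WT mouse (log2 fold change 0.86 ± 0.20 (SE), adjusted p = 0.034). Its call held only without Aromhum 3, with adjusted p of up to 0.127 without any other mouse. Mfap2 was 123, 113 and 115 CPM in WT and 92.0, 79.5 and 82.3 CPM in Aromhum mice, again without overlap (log2 fold change -0.50 ± 0.13 (SE), adjusted p = 0.0424), and its call was lost without any one of the 6 mice, with adjusted p of 0.0655 to 0.138, without the filter on low counts and within the limits without the upper one on genes. Eln was 187, 399 and 243 CPM in WT and 452, 427 and 837 CPM in Aromhum mice (log2 fold change 1.02 ± 0.32 (SE), adjusted p = 0.0731). Mfap4, which was high in these cells in both genotypes, was 2253, 2204 and 2469.8 CPM in WT and 2148, 2086 and 2689.9 CPM in Aromhum mice, with overlap (log2 fold change -0.04 ± 0.15 (SE), adjusted p = 0.902).

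Esr1-hi fibroblasts were made up of different clusters in the 2 genotypes. A cluster led by Scg5, Lcn11 and Lgi1 held 92.1% of the WT cells (786 of 853) and 4.37% of the Aromhum cells (180 of 4121). In Aromhum 1, 2 and 3 it held 24 of 1485, 56 of 1917 and 100 of 719 Esr1-hi fibroblasts. A cluster led by Ass1, Cpne4 and Ctla2a held 4.10% and 62.5%, and one led by Nppc, Pnoc and Aqp5 held 3.75% and 33.2%. Within the Scg5 Lcn11 cluster alone, Fbln1 was 842, 875 and 784 CPM in WT and 347, 483 and 335 CPM in Aromhum mice, without overlap (log2 fold change -1.14 ± 0.18 (SE), adjusted p = 0.0263). Eln in that cluster was 179, 334 and 220.3 CPM in WT and 1172, 915 and 569.7 CPM in Aromhum mice (log2 fold change 1.83 ± 0.29 (SE), adjusted p = 0.0254). These were the 2 members called there, where 0.302% of the 8942 genes tested were called. Fbn1 was 227, 437 and 402 CPM in WT and 537, 503 and 602 CPM in Aromhum mice (log2 fold change 0.60 ± 0.22 (SE), adjusted p = 0.518) and Fbln5 116, 108 and 114 CPM in WT and 181, 216 and 149.7 CPM in Aromhum mice (log2 fold change 0.64 ± 0.19 (SE), adjusted p = 0.359), so neither call of the whole group was met in this cluster. In the Ass1 Cpne4 cluster, Fbln1 was 172, 169 and 226 CPM in WT and 225, 217 and 67.3 CPM in Aromhum mice, the WT values resting on 22, 7 and 6 cells.

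Promoter sequences are shown for Fbn1, Fbln1, Fbln5 and Mfap2, the members called in Esr1-hi fibroblasts. Esr1 encodes the estrogen receptor, a factor that binds DNA at paired GGTCA half-sites. The windows are from RefSeq on GRCm38.p6 and run from 250 bases before to 50 bases after an annotated transcription start, and 6 of the 9 members had 9 such windows. Letters are lower case, with GGTCA on either strand in capitals. The Fbn1 window is chr2:125506389-125506688 on the minus strand, within the annotated gene at chr2:125300594-125507993. Of 2 overlapping Fbln1 windows on the plus strand the first, chr15:85205699-85205998, is shown, where the gene spans chr15:85205949-85286535. Fbln5 has 2 windows on the minus strand, chr12:101819070-101819369, just before the gene at chr12:101746565-101819055, and chr12:101818435-101818734, at an alternative start inside it. Mfap2 also has 2 windows on the plus strand, of which chr4:141010174-141010473, at the start of the gene at chr4:141010418-141015984, is shown, and chr4:141010431-141010730 holds 1 half-site against 3.
Fbn1: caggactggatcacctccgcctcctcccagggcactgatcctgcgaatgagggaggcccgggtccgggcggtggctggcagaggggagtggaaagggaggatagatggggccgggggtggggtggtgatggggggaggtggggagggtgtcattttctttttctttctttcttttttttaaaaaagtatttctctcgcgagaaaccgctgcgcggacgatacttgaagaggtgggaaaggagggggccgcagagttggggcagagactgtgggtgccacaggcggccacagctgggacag
Fbln1: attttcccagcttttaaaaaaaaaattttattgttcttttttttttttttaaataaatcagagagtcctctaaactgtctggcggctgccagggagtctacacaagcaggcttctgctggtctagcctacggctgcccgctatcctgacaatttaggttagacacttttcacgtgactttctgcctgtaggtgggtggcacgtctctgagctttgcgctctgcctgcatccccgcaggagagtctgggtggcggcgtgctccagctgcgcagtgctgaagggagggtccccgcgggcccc
Fbln5, before the gene: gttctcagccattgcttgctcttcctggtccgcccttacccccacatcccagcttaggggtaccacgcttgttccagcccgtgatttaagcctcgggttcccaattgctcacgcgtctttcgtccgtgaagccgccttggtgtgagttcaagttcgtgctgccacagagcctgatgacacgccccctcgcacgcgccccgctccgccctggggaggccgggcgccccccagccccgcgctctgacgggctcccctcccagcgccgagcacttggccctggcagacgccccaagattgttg
Fbln5, inside the gene: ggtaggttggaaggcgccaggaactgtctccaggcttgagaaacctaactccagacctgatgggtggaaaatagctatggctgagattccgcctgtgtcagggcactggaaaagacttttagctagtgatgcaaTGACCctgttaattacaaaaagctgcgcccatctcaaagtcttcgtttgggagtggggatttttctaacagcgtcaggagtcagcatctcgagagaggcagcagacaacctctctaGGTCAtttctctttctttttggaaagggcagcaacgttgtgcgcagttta
Mfap2: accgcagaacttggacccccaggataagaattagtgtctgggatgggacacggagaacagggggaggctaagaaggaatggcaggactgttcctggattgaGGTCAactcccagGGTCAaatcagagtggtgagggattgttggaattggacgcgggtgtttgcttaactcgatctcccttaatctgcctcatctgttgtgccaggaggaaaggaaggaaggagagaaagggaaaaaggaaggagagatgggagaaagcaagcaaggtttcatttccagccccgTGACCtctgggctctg

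A full estrogen response element, searched as GGTCA followed after 3 bases of any kind by TGACC, was in 0 of the members' 9 windows and in 0.07% of 32851 mouse promoter windows of the same length. The half-site GGTCA on either strand, which is also part of the full element, was in 4 of the 9 windows and in 40.5% of all windows. It was absent from the Fbn1 window, from both Fbln1 windows and from the Fbln5 window before the gene, and occurred in the Fbln5 window inside the gene and in both windows of Mfap2 and that of Emilin1. The SMAD box CAGAC, bound by mediators of TGF-beta signalling, was in 6 of the 9 windows and 49.6% of all windows, and the TATA box TATAAA in 0 of 9 and 13.6%. The 2 Fbln1 windows share their 2 SMAD boxes and the 2 Mfap2 windows share 1 half-site, so these sites are counted in both windows. These are letter matches in a short window and carry no statement on binding.

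FAPs, fibro-adipogenic progenitors marked by genes such as Smoc2 and Lama2, had 2 of 9 members called, where 3.02% of all genes were, and DESeq2 called 4, where it called 4.71% of all genes. Fbn1 was 504, 738 and 754 CPM in WT and 1062, 942 and 1139.8 CPM in Aromhum mice, without overlap (log2 fold change 0.68 ± 0.16 (SE), adjusted p = 0.0495), and its call was lost without any one of the 6 mice, with adjusted p of 0.0501 to 0.159, and with RLE size factors (adjusted p = 0.0510). Fbln5 was 126, 173 and 146 CPM in WT and 96.6, 84.2 and 105 CPM in Aromhum mice, every Aromhum mouse below every WT mouse (log2 fold change -0.62 ± 0.12 (SE), adjusted p = 0.0298). That call was lost without WT 2, WT 3, Aromhum 1 or Aromhum 2, with adjusted p of up to 0.124. Fbln5 was thus called lower in FAPs and higher in Esr1-hi fibroblasts of Aromhum mice.

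Tenocyte progenitors had 3 of 9 members called, all higher in Aromhum mice, where 1.21% of all genes were called. Eln was 453, 675 and 725 CPM in WT and 1513, 1060.2 and 2001 CPM in Aromhum mice, without overlap (log2 fold change 1.32 ± 0.22 (SE), adjusted p = 0.0183), and the call was lost without WT 2 or Aromhum 1, with adjusted p of up to 0.0816. Fbn1 was 259, 355 and 321 CPM in WT and 597, 496 and 659 CPM in Aromhum mice (log2 fold change 0.92 ± 0.15 (SE), adjusted p = 0.0181), a call lost without WT 3 or Aromhum 1, with adjusted p of up to 0.0639. Mfap4 was 1283, 932 and 1106 CPM in WT and 2787, 1717 and 1906 CPM in Aromhum mice (log2 fold change 0.95 ± 0.20 (SE), adjusted p = 0.0419). The Mfap4 call held only without WT 1 and reached an adjusted p of 0.167 without other mice. The genotypes did not overlap for Fbn1 or Mfap4 either.

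In tenocytes, edgeR called 0 of 9 members, where 1.31% of all genes were called, with 2 at an unadjusted p under 0.05 (17.1% of all genes) and 2 called by DESeq2 (2.23% of all genes). In Dmkn-hi fibroblasts edgeR also called 0 of 9, where 0.672% of all genes were called, with 4 at an unadjusted p under 0.05 (17.2% of all genes) and 4 called by DESeq2 (3.53% of all genes). Without Aromhum 3 edgeR called 1 member in tenocytes and 2 in Dmkn-hi fibroblasts, where 5.66% and 9.97% of all genes were then called. With the replicate number as a block it called 2 in each, where 4.64% and 2.16% of all genes were called. Fbln5 in Dmkn-hi fibroblasts was 169, 213 and 181 CPM in WT and 107, 123 and 123 CPM in Aromhum mice, without overlap (log2 fold change -0.68 ± 0.13 (SE), adjusted p = 0.0594). Fbn1, at its highest level in these cells, was 1528, 2284 and 2429 CPM in WT and 2583, 1979 and 3249.8 CPM in Aromhum mice, with overlap (log2 fold change 0.31 ± 0.22 (SE), adjusted p = 0.507). A Dmkn-hi cluster led by Dmkn, Krt23 and Sbsn held 1 WT and 1479 Aromhum cells, the latter 463, 1007 and 9 in Aromhum 1, 2 and 3. Mmp3-hi fibroblasts numbered 46, 0 and 4 in WT and 660, 1207 and 5 in Aromhum mice, so no test was made.

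Endothelial-like cells had 5 of 9 members called, all higher in Aromhum mice, where 14.7% of all genes were called. Fbln5, the fibulin needed for elastin assembly, was 84.8, 88.9 and 87.9 CPM in WT 1, 2 and 3 and 203, 127 and 136 CPM in Aromhum 1, 2 and 3. Every Aromhum mouse lay above every WT mouse (log2 fold change 0.85 ± 0.17 (SE), adjusted p = 0.013), and the call was lost without WT 2 (adjusted p = 0.0543). Emilin1 was 17.5, 19.1 and 15.1 CPM in WT and 29.4, 28.4 and 24.0 CPM in Aromhum mice, without overlap (log2 fold change 0.67 ± 0.13 (SE), adjusted p = 0.0116), and its call was lost without Aromhum 1 (adjusted p = 0.0621). Mfap4 was 6.99, 4.74 and 4.04 CPM in WT and 16.7, 14.2 and 19.0 CPM in Aromhum mice (log2 fold change 1.71 ± 0.22 (SE), adjusted p = 0.00367), a call kept without each mouse. Mfap5 had a log2 fold change of 1.04, adjusted p = 0.0076, lost within the study's limits on cells (adjusted p = 0.102), where the other 4 were kept, and Fbn1 of 0.50, adjusted p = 0.0394, the Fbn1 call holding only without Aromhum 2 among the mice left out (adjusted p of up to 0.155). Eln was 42.2, 53.4 and 127 CPM in WT and 127, 109.7 and 242 CPM in Aromhum mice (log2 fold change 1.11 ± 0.41 (SE), adjusted p = 0.0944), with WT 3 above Aromhum 2 and just above Aromhum 1. Within those limits Eln was called (log2 fold change 1.38, adjusted p = 0.0190). With the replicate number as a block, which called 24.0% of all genes, 6 members were called, Eln among them (log2 fold change 1.19, adjusted p = 0.000246). Same-numbered mice deviated together in every pair in these cells but not in fibroblast-like cells, and the numbers are not known to pair mice.

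Summed fibroblast marker genes moved with these differences. The 8 fibroblast-like markers, all detected in every mouse, summed to 166 to 223 CPM in endothelial-like cells of WT mice and 376 to 423 CPM in those of Aromhum mice. As a share of the level in fibroblast-like cells of the same mouse, the marker sum in endothelial-like cells was 0.624%. Mfap4 stood at 0.766%, Mfap5 at 0.732%, Fbln1 at 0.781% and Mfap2 at 0.767% on that scale, near the marker sum. Fbln5 stood at 83.6%, Emilin1 at 44.7%, Fbln2 at 43.1%, Eln at 17.8% and Fbn1 at 3.88%, above it. RNA free in the suspension gives UMIs to cells that do not express a gene. Its part in the endothelial differences was not tested for any member, Fbn1 included.

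Endothelial subsets were also tested alone, on fewer cells. As a share of the fibroblast-like level, Fbln5 stood at 305% in arterial, 64.5% in venular and 8.77% in capillary cells. The part of subset makeup in the differences of all endothelial-like cells was not tested. Arterial cells had 1 of 8 tested members called, Mfap4, where 0.811% of all genes were called. Capillary cells had 3 of 8 called, Fbn1, Mfap4 and Mfap5, where 2.09% were called, and venular cells 1 of 7, Mfap4, where 1.38% were called. Fbln5 in arterial cells was 306, 383 and 306 CPM in WT and 723, 472 and 477 CPM in Aromhum mice, without overlap between genotypes (log2 fold change 0.72 ± 0.17 (SE), adjusted p = 0.0688). Fbln5 was 6.07, 10.1 and 7.94 CPM in WT and 23.5, 19.3 and 11.1 CPM in Aromhum mice in capillary cells (log2 fold change 1.04 ± 0.27 (SE), adjusted p = 0.0645) and 89.8, 68.5 and 71.0 CPM in WT and 135, 118 and 78.5 CPM in Aromhum mice in venular cells, with overlap in the latter (log2 fold change 0.40 ± 0.19 (SE), adjusted p = 0.289). Emilin1 was called in no subset, with log2 fold changes of 0.68, adjusted p = 0.215, in arterial, 0.02, adjusted p = 0.986, in capillary and 0.81, adjusted p = 0.0502, in venular cells, the genotypes overlapping in capillary cells. Fbn1 in venular cells had a log2 fold change of -0.51, adjusted p = 0.2, of opposite sign to that in all endothelial-like cells.

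**Figure D4:**
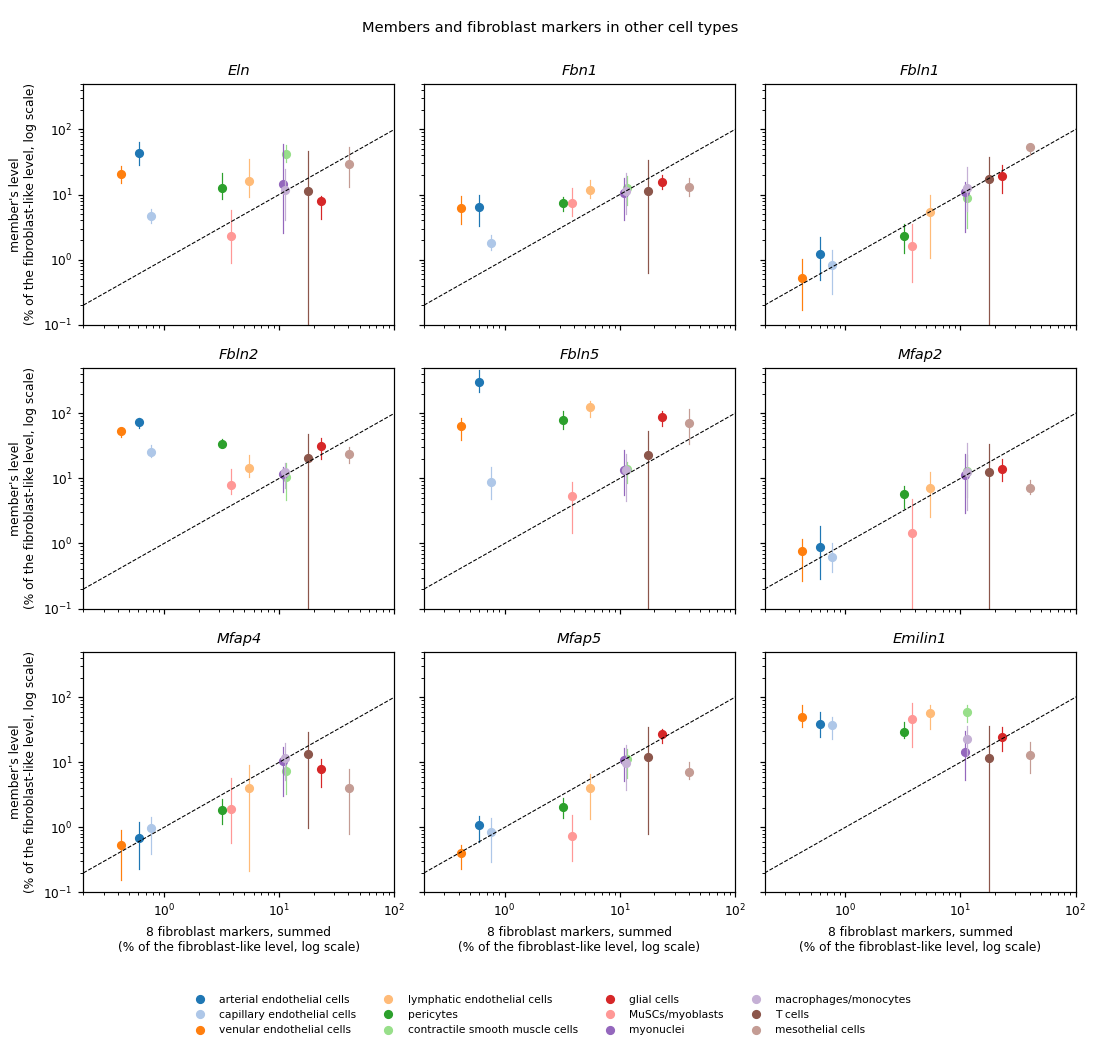
Level of each member against the summed level of 8 fibroblast markers in other cell types, both as a percentage of the level in fibroblast-like cells of the same mouse, on log axes. Points are means over mice, vertical lines run from the lowest to the highest mouse, values under 0.1% are drawn at 0.1, and the dashed line marks equality. Fbln5, Fbln2, Emilin1 and Eln lie far above the line in arterial and venular endothelial-like cells, whereas Fbln1, Mfap2, Mfap4 and Mfap5 lie near it in endothelial-like cells.

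Contractile smooth muscle-like cells had 2 of 9 members called, where 1.61% of all genes were. Fbn1 was 63.7, 80.8 and 50.8 CPM in WT and 234, 165 and 189.8 CPM in Aromhum mice, without overlap (log2 fold change 1.501 ± 0.21 (SE), adjusted p = 0.0197), and Mfap5 was 151, 163 and 92.4 CPM in WT and 276, 299.9 and 308 CPM in Aromhum mice, without overlap (log2 fold change 1.02 ± 0.21 (SE), adjusted p = 0.0455). The Fbn1 call was lost without WT 1, WT 2, WT 3 or Aromhum 1, with adjusted p of up to 0.0865, and that of Mfap5 without any mouse but Aromhum 3, with adjusted p of up to 0.155, while 4 members were called without Aromhum 3, where 14.8% of all genes were. Eln was 143, 208 and 396 CPM in WT and 213, 188 and 363 CPM in Aromhum mice (log2 fold change -0.06 ± 0.36 (SE), adjusted p = 0.944). The fibroblast markers summed to 2588 to 5873 CPM in WT and 5201 to 7383 CPM in Aromhum mice, 11.5% of the fibroblast-like level, near Fbn1 at 12.6% and Mfap5 at 11.2% and below Eln at 41.3% and Emilin1 at 58.3%. The part of fibroblast RNA in these calls was not tested.

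Fbn1 was also called higher in Aromhum mice in macrophage-like, glial-like and muscle stem cell-like (MuSC-like) cells. In macrophage-like cells it was 30.5, 49.1 and 43.9 CPM in WT and 154, 226 and 249 CPM in Aromhum mice (log2 fold change 2.30 ± 0.27 (SE), adjusted p = 0.00905), the only one of 9 members called, where 0.672% of all genes were, and the call was lost without WT 3 or Aromhum 2 (adjusted p of up to 0.0680). DESeq2 called 4 members there, where it called 1.95% of all genes. With the replicate number as a block, edgeR also called Eln, Mfap4 and Mfap5 in these cells (adjusted p of 0.0123 to 0.0161). The marker sum there was 2320 to 3514 CPM in WT and 6581 to 8335 CPM in Aromhum mice. In glial-like cells Fbn1 was 97.1, 101 and 117 CPM in WT and 148, 211 and 216 CPM in Aromhum mice (log2 fold change 0.82 ± 0.15 (SE), adjusted p = 0.0444), the only one of 9 members called, where 0.469% were, with a call that held only without Aromhum 1 and an adjusted p of up to 0.226 without other mice. That block also called Mfap4 in glial-like cells (edgeR adjusted p = 0.00829). The marker sum in glial-like cells was 8418 to 10237 CPM in WT and 11151 to 13552 CPM in Aromhum mice.

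In MuSC-like cells 2 of 8 tested members were called, where 2.6% of all genes were. Fbn1 was 45.0, 41.3 and 52.9 CPM in WT and 86.5, 136 and 67.7 CPM in Aromhum mice (log2 fold change 1.00 ± 0.21 (SE), adjusted p = 0.0462) and Mfap4 was 6.96, 6.59 and 15.1 CPM in WT and 34.3, 82.2 and 20.8 CPM in Aromhum mice (log2 fold change 2.22 ± 0.48 (SE), adjusted p = 0.0462), without overlap. Both calls held only without Aromhum 3 among the mice left out, with adjusted p of up to 0.182. The Fbn1 call was lost within the study's limits on cells (adjusted p = 0.179). The marker sum was 616 to 907 CPM in WT and 1376 to 4190 CPM in Aromhum mice. In macrophage-like, glial-like and MuSC-like cells alike, the marker sum thus moved in the same direction as Fbn1, and its part was not tested.

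EdgeR called 0 members in lymphatic endothelial-like cells, pericyte-like cells, myonuclei-like cells and mesothelial-like cells, where 0.0655%, 0.00887%, 0.253% and 0.412% of all genes were called. At an unadjusted p under 0.05 there were 3, 3, 2 and 4 members, where 7.36%, 9.66%, 8.9% and 20.8% of all genes passed. DESeq2 called 0, 0, 0 and 3 members, where it called 0.262%, 0.789%, 1.05% and 5.63% of all genes. Leaving out Aromhum 3 gave 1 call in myonuclei-like and 2 in mesothelial-like cells, where 1.24% and 13.7% of all genes were then called, and leaving out WT 1 gave 1 in lymphatic endothelial-like cells, where 0.367% were. With the replicate number as a block, 0 members were called in lymphatic endothelial-like cells, Eln in pericyte-like cells (adjusted p = 0.00372), Eln in myonuclei-like cells (adjusted p = 0.00572), and Fbn1, Fbln1, Fbln5 and Mfap4 in mesothelial-like cells (adjusted p of 0.0305 to 0.0437). That fit called 0.0655%, 2.64%, 2.96% and 3.31% of all genes. Fbln1 in mesothelial-like cells, where its level came next to fibroblast-like cells, was 515, 379 and 407 CPM in WT and 252, 178 and 226 CPM in Aromhum mice, without overlap (log2 fold change -0.91 ± 0.18 (SE), adjusted p = 0.0592). Fbln5 in lymphatic endothelial-like cells, its highest broad cell type, was 189.9, 154 and 176 CPM in WT and 189, 173 and 185 CPM in Aromhum mice, with overlap (log2 fold change 0.08 ± 0.13 (SE), adjusted p = 0.938).

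**Figure D5:**
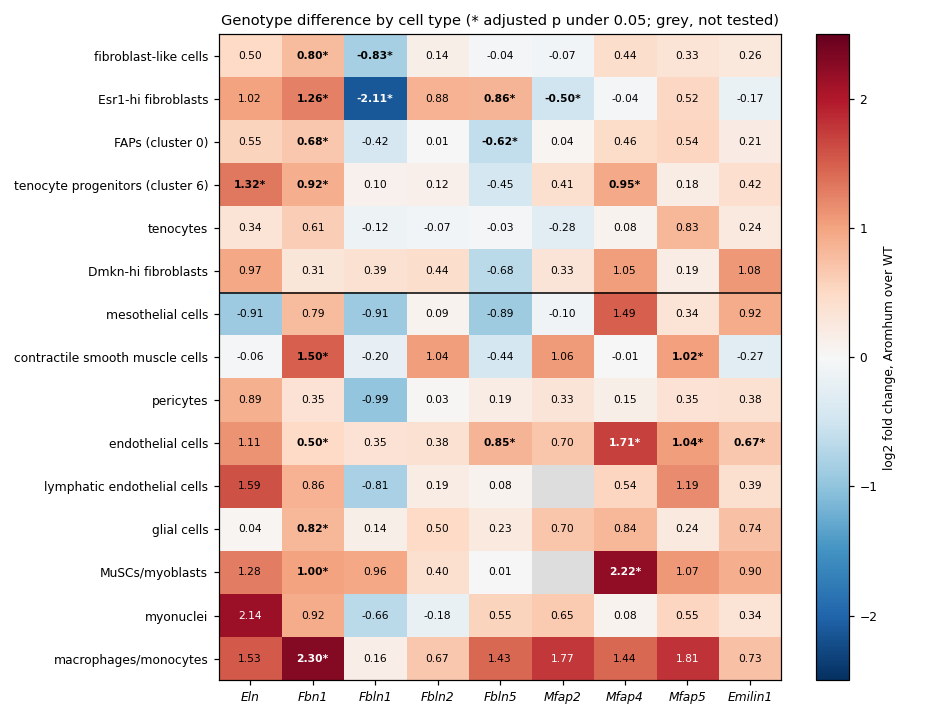
Log2 fold changes of the 9 members, Aromhum over WT, by cell type and by group of fibroblast-like cells, where names stand for cells like the named type. Colour runs from blue (lower) to red (higher in Aromhum mice), an asterisk marks an edgeR adjusted p under 0.05 and grey marks members not tested. Fbn1 is positive in every cell type shown, and Fbln1 is most negative in Esr1-hi fibroblasts.

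Whether genotype effects differed between cell types was tested as an interaction, with the mouse as a term. Between fibroblast-like and endothelial-like cells, 4 of 9 members were called, where 11.5% of all genes were. The effect in fibroblast-like cells minus that in endothelial-like cells was, on the log2 scale, -1.23 ± 0.20 (SE), adjusted p = 0.00833, for Fbln1, -0.87 ± 0.18 (SE), adjusted p = 0.0187, for Fbln5, -1.28 ± 0.19 (SE), adjusted p = 0.00727, for Mfap4, and -0.72 ± 0.19 (SE), adjusted p = 0.0379, for Mfap5. The Mfap5 call held only without WT 3 (adjusted p of up to 0.110 without other mice), and that of Fbln5 was lost without WT 2 or Aromhum 1 (adjusted p of up to 0.0888). The part of endothelial subset makeup in these differences was not tested. Between Esr1-hi fibroblasts and the other fibroblast-like cells, 2 of 9 were called, where 2.31% of all genes were. The difference was -1.87 ± 0.20 (SE), adjusted p = 0.00574, for Fbln1 and 1.40 ± 0.25 (SE), adjusted p = 0.0263, for Fbln5, the latter lost without WT 2, WT 3, Aromhum 1 or Aromhum 2 (adjusted p of up to 0.120). The makeup of both sides differed between genotypes. The Scg5 Lcn11 cluster held 92.1% of Esr1-hi fibroblasts in WT and 4.37% in Aromhum mice. The other fibroblast-like cells held 50 Mmp3-hi fibroblasts in WT and 1872 in Aromhum mice, and 1 and 1479 cells of the Dmkn Krt23 cluster. Aromhum 3 had only 5 and 9 cells of these, unlike Aromhum 1 and 2. The part of this makeup in the differences was not tested. Between fibroblast-like and contractile smooth muscle-like cells edgeR called 0 of 9, where 2.82% of all genes were called, with 7 at an unadjusted p under 0.05, where 20.5% of all genes passed. Without Aromhum 3 it called 5 there, Eln with a positive difference and Fbn1, Fbln2, Mfap2 and Mfap5 with a negative one, where 11.1% of all genes were then called, and 5 also between Esr1-hi and the other fibroblast-like cells, where 6.92% were.

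With all cells of a mouse summed, 6 of 9 members were called, all higher in Aromhum mice, where 23.6% of all genes were called. In such sums fewer cells of a type and less RNA per cell cannot be told apart. Fbn1 was 328, 294 and 223 CPM in WT and 793, 735 and 829 CPM in Aromhum mice (log2 fold change 1.51 ± 0.17 (SE), adjusted p = 0.0178). Eln was 201, 191 and 252 CPM in WT and 428, 426 and 569 CPM in Aromhum mice (log2 fold change 1.17 ± 0.16 (SE), adjusted p = 0.0179). Mfap4 had a log2 fold change of 1.16, adjusted p = 0.0361, Mfap5 of 1.05, adjusted p = 0.0237, Emilin1 of 0.68, adjusted p = 0.022, and Fbln2 of 0.58, adjusted p = 0.0201. Fbln1, called lower in fibroblast-like cells, was 460.0, 253 and 213 CPM in WT and 312, 318 and 246 CPM in Aromhum mice in the sums (log2 fold change -0.05 ± 0.33 (SE), adjusted p = 0.918). All 6 calls were lost without WT 2, WT 3, Aromhum 1 or Aromhum 2 (adjusted p of up to 0.116), 7 and 8 members were called without WT 1 and without Aromhum 3, where 20.3% and 31.1% of all genes were, and within the study's limits on cells edgeR called 0 genes.

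Fibroblast-like cells gave 33.2% ± 11.8 of UMIs in WT and 57.0% ± 5.64 in Aromhum mice (SD, n = 3). When WT levels per cell type were combined with the Aromhum cell type makeup, the log2 difference of all cells from WT was 0.63 for Fbn1, 0.59 for Eln, 0.67 for Mfap2 and 0.75 for Fbln1. When Aromhum levels were combined with the WT makeup it was 0.83 for Fbn1, 0.61 for Eln, 0.01 for Mfap2 and -0.76 for Fbln1. For Fbln1 the makeup and the levels thus had opposite signs. For Mfap2 the makeup alone came near 0.66, the value with both Aromhum makeup and Aromhum levels. These are arithmetic combinations without a test.

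Of the other genes of the elastic fibre system, 26 listed assembly genes were all tested in fibroblast-like cells, with 9 called higher and 1 lower in Aromhum mice, where 13.4% of all genes were called, at a median log2 fold change of 0.297. Without WT 2, WT 3 or Aromhum 1 only 8, 6 and 7 of all genes tested were called in these cells, and 1 within the study's limits. The largest changes were those of Thsd4, 2.31, adjusted p = 0.0413, and Adamtsl2, 2.19, adjusted p = 0.0131, whose proteins act on fibrillin microfibrils. Adamtsl2 was 10.9 to 19.2 CPM in WT mice and 60.3 to 71.8 CPM in Aromhum mice, and Thsd4 1.31 to 1.87 CPM in WT mice and 2.63 to 11.6 CPM in Aromhum mice, so Thsd4 remained low. Fbn2, a second fibrillin gene, was 1.29, adjusted p = 0.0431. Efemp2, a fibulin that brings lysyl oxidase to elastin, was 1.06, adjusted p = 0.0385, and Loxl1, a lysyl oxidase that cross-links elastin, was 0.60, adjusted p = 0.045. Fbln7 was 0.89, adjusted p = 0.0321, Vcan 0.79, adjusted p = 0.0193, Emilin2 0.68, adjusted p = 0.025, and Mfap3 0.33, adjusted p = 0.0496. Adamtsl4 fell by 0.71 on the log2 scale, adjusted p = 0.0425. These values are log2 fold changes with edgeR's adjusted p.

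Of 6 listed elastin-degrading enzymes 5 were tested in fibroblast-like cells, and 2 were called higher, where 13.4% of all genes were called, with a median log2 fold change of 1.21 over the 5. This median was the value of Ctss, at a mean of 0.582 CPM and not called, and Mmp12 was also low at 1.31 CPM. Ctsk, at 524 CPM, had a log2 fold change of 0.40 and was not called. Mmp2 was 582 to 676 CPM in WT mice and 856 to 1141 CPM in Aromhum mice (0.74, adjusted p = 0.0398 by edgeR). Mmp9 was 0 to 0.0328 CPM in WT mice and 0.509 to 4.22 CPM in Aromhum mice, close to 0 in each. In Esr1-hi fibroblasts, where 12.7% of all genes were called, 24 assembly genes were tested, with 3 higher (Adamtsl2 1.74, adjusted p = 0.00709, Emilin2 1.598, adjusted p = 0.00472, and Efemp2 1.03, adjusted p = 0.02) and 2 lower (Adamtsl4 -1.92, adjusted p = 0.0228, and Loxl3 -1.31, adjusted p = 0.023), all log2 fold changes with edgeR's adjusted p. Of 3 degrading enzymes tested there, Mmp2 was called higher (0.55, adjusted p = 0.0393).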

How the data were processed

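Lower abdominal muscle of 3 WT and 3 Aromhum mice was dissociated, and single cells were captured with 10x Genomics 3' chemistry. The authors aligned reads with Cell Ranger 3.0.2 to mm10 with human CYP19A1 added, and deposited UMI counts per gene and barcode, 16494 genes by 63647 barcodes, without normalization. UMIs summed to 64958237 to 111826460 per mouse, and intervals on such counts would cover counting error only. Genotype and replicate came from the sample titles. The methods place 1 WT and 1 Aromhum littermate on each processing date but tie no date to a number, so no comparison could be made within dates. Replicate numbers entered no main test, only an alternative with the number as a block.

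No barcode was left out for its depth, and 1458 in mixed clusters and 2093 in unnamed clusters entered no tested cell type. Counts were scaled to 10000 per cell and log-transformed, and 2000 variable genes without elastic fibre genes gave 30 principal components and Leiden clusters (20 neighbours, resolution 0.8). Clusters were named where at least 3 markers of a fixed list were detected, with details of the naming set after cluster genes were seen. Clusters of fibroblast-like or endothelial-like cells led by markers of another type were set aside as mixed, and other cell types were not screened for them. Expected doublets at 0.8% per 1000 barcodes were marked (6.33% to 11.0% per mouse) and left out only as an alternative. Raw counts were summed per mouse and cell type and tested with edgeR's quasi-likelihood test (TMM scaling, filterByExpr, Benjamini-Hochberg over all genes tested, threshold 0.05), where each mouse had at least 20 cells of a type or 10 of a fibroblast-like group. Differences of genotype effects between cell types were tested as interactions with mouse as a term. The study compared cells with a Wilcoxon test, whereas here the mouse is the replicate, and an exact permutation test of 3 against 3 mice cannot go below p = 0.1. The scripts were tested on simulated data.

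The rule on naming covered all 9 members in every comparison, where those neither called nor described stand as counts, and of a list of other elastic fibre genes those called in fibroblast-like cells, up to 12. Members and lists were chosen with earlier results of these data known. 1 gene among those most like a member is not reported here. Alternatives were DESeq2, each mouse left out, RLE size factors, a block for the replicate number, all genes without filtering, the study's limits on cells (200 to 2500 genes, at least 1000 UMIs, at most 5% mitochondrial, without its removal of outliers by median absolute deviation, whose measure is not given in the sources used here), doublets left out, other resolutions, members kept in the clustering and equal weight of clusters. Subsets of endothelial-like cells, Esr1-hi fibroblasts left out, 1 Esr1-hi cluster alone, mixed groups kept, limits without the upper one on genes, and groups following the deposited column order were chosen after seeing the data. Promoter windows are RefSeq's (GRCm38.p6) and gene spans GENCODE's of the same build. Software was Python 3.11.15, scanpy 1.11.5, leidenalg 0.10.2, R 4.3.3, edgeR 4.0.16, limma 3.58.1 and DESeq2 1.42.0.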

Additional observations from a re-analysis of the deposited data

Results flagged for a closer look

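The genotype effect differed between cell types for 4 of 9 members in the edgeR interaction test of fibroblast-like against endothelial-like cells, where 11.5% of all genes were called. The log2 effect in fibroblast-like cells minus that in endothelial-like cells was -1.23 for Fbln1, -0.87 for Fbln5, -1.28 for Mfap4 and -0.72 for Mfap5. Fbln1 fell in fibroblast-like cells, and the other 3 were called higher in endothelial-like cells and not in fibroblast-like cells. The Mfap5 call held only without WT 3 among the mice left out, and that of Fbln5 was lost without WT 2 or Aromhum 1. The summed fibroblast markers in endothelial-like cells were also higher in Aromhum mice, 376 to 423 CPM against 166 to 223 CPM, and stood at 0.624% of the fibroblast-like level, near Fbln1 at 0.781%, Mfap4 at 0.766% and Mfap5 at 0.732%, and their part was not tested. The part of endothelial subset makeup was not tested either. Within the study's limits on cells the Fbln5 and Mfap4 calls held and the others were lost, where 0.534% of all genes were called. Between Esr1-hi fibroblasts and the other fibroblast-like cells, where 2.31% of all genes were called, the difference in effect was -1.87 for Fbln1 and 1.40 for Fbln5. The effect in Esr1-hi fibroblasts was thus more negative for Fbln1 and more positive for Fbln5, the Fbln5 call being lost without WT 2, WT 3, Aromhum 1 or Aromhum 2. Esr1-hi fibroblasts came mostly from different clusters in WT and Aromhum mice, the other fibroblast-like cells also differed in makeup, and the part of this was not tested.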

How the results depend on the processing

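The number of members called depended on the mice left out. Leaving out each mouse in turn, it ran, beside the share of all genes called, from 0 to 2 (0.0417% to 29.6%) in fibroblast-like cells, 1 to 4 (1.67% to 21.4%) in Esr1-hi fibroblasts, 0 to 1 (0.357% to 7.76%) in FAPs, 0 to 3 (0.177% to 2.59%) in tenocyte progenitors, 0 to 1 (0.0219% to 5.66%) in tenocytes, 0 to 2 (0% to 9.97%) in Dmkn-hi fibroblasts, 3 to 5 (3.76% to 14.0%) in endothelial-like, 0 to 1 (0% to 0.367%) in lymphatic endothelial-like, 0 to 4 (0.0329% to 14.8%) in smooth muscle-like, 0 to 1 (0% to 0.949%) in macrophage-like, 0 to 1 (0.111% to 1.37%) in glial-like, 0 to 2 (0% to 11.5%) in MuSC-like, 0 to 1 (0% to 1.24%) in myonuclei-like and 0 to 2 (0% to 13.7%) in mesothelial-like cells and 0 to 8 (0% to 31.1%) in all cells. It ran from 0 to 5 (0.229% to 11.1%), 2 to 5 (2.64% to 16.6%) and 1 to 5 (0.648% to 6.92%) in the interactions with smooth muscle-like cells, with endothelial-like cells and of Esr1-hi fibroblasts, while the count highest in fibroblast-like cells stayed at 8. Single members' log2 differences were tallied for all members tested in fibroblast-like cells, Esr1-hi fibroblasts, all cells and the interactions. Elsewhere only members called with all mice were tallied, so calls gained there by other members are not included. In this tally 285 kept direction and side of the threshold, 112 lost a call, 13 gained one and 10 changed sign. The sign changes were in Fbln5 (-0.14 to 0.076) and Mfap2 (-0.20 to 0.028) in fibroblast-like cells, Fbln1 in all cells (-0.26 to 0.39), Mfap4 in Esr1-hi fibroblasts (-0.14 to 0.020), Mfap4 in the interaction with smooth muscle-like cells (-0.025 to 0.85) and Mfap5 in that of Esr1-hi fibroblasts (-0.33 to 0.0997), none of them called with all mice.

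Under the other settings, in the same tally, 308 differences were the same, 30 lost a call, 8 gained one and 18 changed sign. Calls gained by members outside the tally are not in these numbers. DESeq2 called 4 members in fibroblast-like cells, 4 in FAPs (4.71% of all genes), 2 in tenocytes, 4 in Dmkn-hi fibroblasts, 4 in macrophage-like (1.95% of all genes) and 3 in mesothelial-like cells. Without a filter on low counts 3 were called in lymphatic endothelial-like (0.670% of all genes), 3 in macrophage-like cells (1.26%), 2 in tenocytes (2.87%) and 2 in Dmkn-hi fibroblasts (1.26%), and with RLE size factors 1 in FAPs (3.00%). With the replicate block, in a design whose numbers are not known to pair mice, 1 member was called in pericyte-like (2.64% of all genes), 4 in macrophage-like (1.53%), 2 in glial-like (1.74%), 1 in myonuclei-like (2.96%) and 4 in mesothelial-like cells (3.31%), 2 in tenocytes (4.64%), 2 in Dmkn-hi fibroblasts (2.16%) and 2 in fibroblast-like cells (10.3%), and Fbln1 in all cells was 0.027. The block gave 3 calls in FAPs (7.77%), 5 in Esr1-hi fibroblasts (16.8%), 3 in tenocyte progenitors (4.62%), 6 in endothelial-like (24.0%), 3 in smooth muscle-like (8.75%) and 2 in MuSC-like cells (6.47%), 0 in lymphatic endothelial-like cells (0.0655%) and 7 in all cells (26.1%). Deviations of same-numbered mice correlated at 0.21, -0.13 and 0.18 in fibroblast-like, 0.17, 0.033 and 0.27 in smooth muscle-like and 0.25, -0.024 and 0.30 in all cells, and at 0.26, 0.15 and 0.33 in endothelial-like cells, where every mouse correlated best with its own number, unlike in fibroblast-like cells. With Esr1-hi fibroblasts left out or clusters weighted equally, 1 was called in fibroblast-like cells (0.340% and 1.46% of all genes), and Mfap2 was 0.23 in the former. Arterial, capillary and venular cells alone gave 1, 3 and 1 calls, with Fbn1 at -0.51 in venular cells. In Esr1-hi fibroblasts, the Scg5 Lcn11 cluster alone and the limits without the upper one gave 2 calls each (0.302% and 8.75% of all genes). Uncalled signs turned for Fbln2 (-0.0061) and Mfap4 (0.073) in that cluster, and for Mfap4 within those limits (0.097) and in groups of the deposited columns (0.0056).

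Within the study's limits on cells, edgeR called 0 of 9 members in fibroblast-like cells and all cells and 0 of the 3 tested in MuSC-like cells, where Mfap4 was not tested, no member was tested in macrophage-like cells, and it called 2 in the interaction with endothelial-like cells (0.534% of all genes) and 5 of 8 in endothelial-like cells (7.69%), where Mfap5 lost its call and Eln gained one. Within the limits Mfap2 was 0.24 and Mfap4 -0.020 in fibroblast-like cells and Fbln5 -0.069 in all cells. In the interaction with smooth muscle-like cells, none called, signs turned for Eln (-1.18), Fbn1 (0.54), Fbln1 (0.46), Fbln5 (-0.00180), Mfap2 (0.38), Mfap4 (-0.16), Mfap5 (0.015) and Emilin1 (-1.54). Levels in fibroblast-like cells became 634 CPM for Fbn1, 797 CPM for Fbln1, 583 CPM for Fbln2, 1073 CPM for Mfap4, 1504 CPM for Mfap5 and 34.2 CPM for Emilin1. Shares of fibroblast-like cells with a UMI became 76.7% for Fbn1, 80.2% for Fbln1, 81.6% for Fbln2, 46.9% for Fbln5, 45.0% for Mfap2, 58.8% for Mfap4 and 17.8% for Emilin1, and with cells thinned to 1000 UMIs 24.3% for Eln, 46.3% for Fbn1, 39.4% for Fbln1, 43.9% for Fbln2, 12.7% for Fbln5, 11.1% for Mfap2, 46.8% for Mfap4, 67.0% for Mfap5 and 4.59% for Emilin1. The causes were not tested. The limits were not run for pericyte-like, smooth muscle-like, glial-like and mesothelial-like cells or the Esr1-hi interaction, which kept between 7 and 15 cells in the poorest mouse. Nor were they run for any single group of fibroblast-like cells, Esr1-hi fibroblasts included, or for the endothelial subsets.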
